A study of Homo sapiens with 6 samples.

Results

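Levels of 9 receptors of haematopoietic growth factors, CSF1R, CSF2RA, CSF2RB, CSF3R, IL3RA, FLT3, KIT, IL6R and IL6ST, were examined in FUJIOKA, an established human acute myeloid leukaemia (AML) cell line. The genes were chosen by name, and all 9 were found among the 63236 genes of the deposited table, 32220 of which had a mean above 0. Messenger RNA was sequenced in 6 bulk libraries of cells carrying a lentiviral, doxycycline-inducible short hairpin RNA (shRNA). In 3 libraries (shNEG) the hairpin was a scrambled control, and in 3 (shSPINK2) it was directed at SPINK2, which encodes a Kazal-type inhibitor of serine proteases. Cells of both groups were given doxycycline at 1 µg/µl, and both carried an integrated hairpin cassette and were selected with puromycin, so neither group is the unmodified line. The time on doxycycline at RNA collection is not given in the sources used here, and nothing says that the 3 libraries of a group came from separate cultures.

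The value used for each gene was the authors' mean over all 6 libraries of the read count divided by the size factor of each library (the mean normalized count). It averages over shNEG and shSPINK2, is the level of neither group alone, and has no standard deviation over libraries. No difference between the groups is therefore given or tested here, and no test was made for any receptor. Because whole cultures were sequenced, fewer cells that express a gene and less RNA per cell cannot be told apart.

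Growth factor receptors of the myeloid lineage fall into a few families. CSF1R, FLT3 and KIT are receptor tyrosine kinases of class III, which dimerise on binding their ligand and phosphorylate their own intracellular part. The other receptors have no kinase domain. Their complexes signal through Janus kinases (JAK) bound to the intracellular part of the signalling chains, which phosphorylate STAT transcription factors. CSF2RA and IL3RA are alpha chains that bind GM-CSF and interleukin 3 and share the beta chain encoded by CSF2RB, CSF3R forms a homodimer for G-CSF, and IL6R presents interleukin 6 to gp130, the signalling chain encoded by IL6ST. FLT3 and KIT are typical of progenitors, whereas CSF1R marks the monocyte lineage and CSF3R the granulocyte lineage. Mutations of FLT3, KIT and CSF3R are known in myeloid leukaemia.

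The size factors of the 6 libraries lay between 0.985 and 1.03, and the means summed to 38425214 reads per library. Markers of the labelled cell type were present: all 10 genes of a myeloid blast list were detected, that is, had a mean of at least 6. The mean normalized count was 44097 for LYZ (lysozyme), 7777 for CD33 and 19.6 for CD34, the progenitor antigen. Of 8 granulocyte genes 6 were detected, led by CTSG (the granule protease cathepsin G) at 103689. Genes of late granulocytes in that list differed: CXCR2 had a mean of 2060 and LTF of 29.6, whereas CEACAM8 and FCGR3B were listed at 0. Among 8 monocyte and macrophage genes 4 were detected, with FCGR1A at 955 and CD14 at 2.83. In the lists for other cell types, 1 of 5 T cell, 2 of 5 B cell, 1 of 5 erythroid, 1 of 4 megakaryocyte, 2 of 5 mast cell, 1 of 5 epithelial and 2 of 4 fibroblast genes were detected. The defining genes of these types were near or at 0, with CD3E at 0.500, MS4A1 at 0.333, HBB at 0, PF4 at 0, TPSAB1 at 0, EPCAM at 0 and COL1A2 at 0. The part of other cells in the receptor levels was not tested.

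The sequences that the hairpins were designed against are shown because they define the perturbation of the shSPINK2 group and can be searched for in the receptors. They lie in the coding sequence of SPINK2 on the minus strand of chromosome 4 (GRCh38), each across an exon junction, and are given 5′ to 3′ on the mRNA, with capitals for the bases that pair with guide positions 2 to 8, the seed. The target of shRNA1 spans exon 3 (chr4:56811685-56811688) and exon 4 (chr4:56810168-56810184), and that of shRNA2 spans exon 2 (chr4:56820536-56820537) and exon 3 (chr4:56811776-56811794). The labels name both hairpins without saying which each shSPINK2 library carried, and the methods of the study name shRNA1.
SPINK2 shRNA1: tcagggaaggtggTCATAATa
SPINK2 shRNA2: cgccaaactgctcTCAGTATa
Neither target was found whole in any of the 110 annotated transcripts of the 9 receptors, and among all genes both matched SPINK2 alone. The seed word TCATAAT occurred in the 3′ UTR of CSF2RB, against 13.3% of the 12763 3′ UTRs searched, and the seed word TCAGTAT in those of CSF3R and IL6R, against 15.1%. A seed word is a match of letters and says nothing about binding.

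All receptors but KIT were detected, as were 12828 of the 16127 protein-coding genes with a mean above 0. Their mean normalized counts ranged from 394 for IL6ST to 13368 for IL6R, and the 9 genes together took 0.0730% of the reads, 47.7% of which were reads of IL6R. To compare genes, each mean was divided by the length of the canonical transcript in GENCODE 44 and given per kb. On this scale the order was IL6R, CSF3R, CSF1R, FLT3, CSF2RB, CSF2RA, IL3RA, IL6ST and KIT. The median protein-coding gene with a mean above 0 stood at 180 per kb, and 7 of the 9 receptors lay above it, 4 of them at or above percentile 75 (689 per kb). The counting error of a mean, which covers counting only, ran from 0.353% for IL6R to 2.06% for IL6ST, so neighbours in the order from IL6R to IL6ST are apart by more than counting error. The spread between libraries is unknown for these 8 genes, and whether neighbours differ beyond it was not tested.

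**Figure D1:**
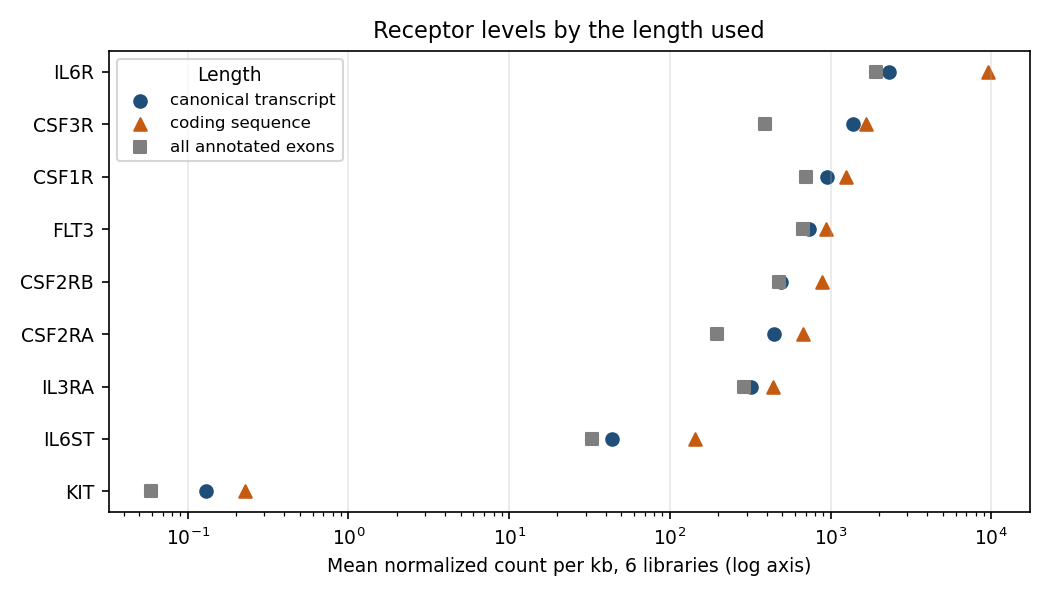
Mean normalized count per kb (log axis) of the 9 receptors, with a circle for division by the canonical transcript, a triangle for the coding sequence and a square for all annotated exons. IL6R is highest and KIT lowest under each length, while CSF3R falls from 1383 to 393 per kb when all annotated exons are used.

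**Figure D2:**
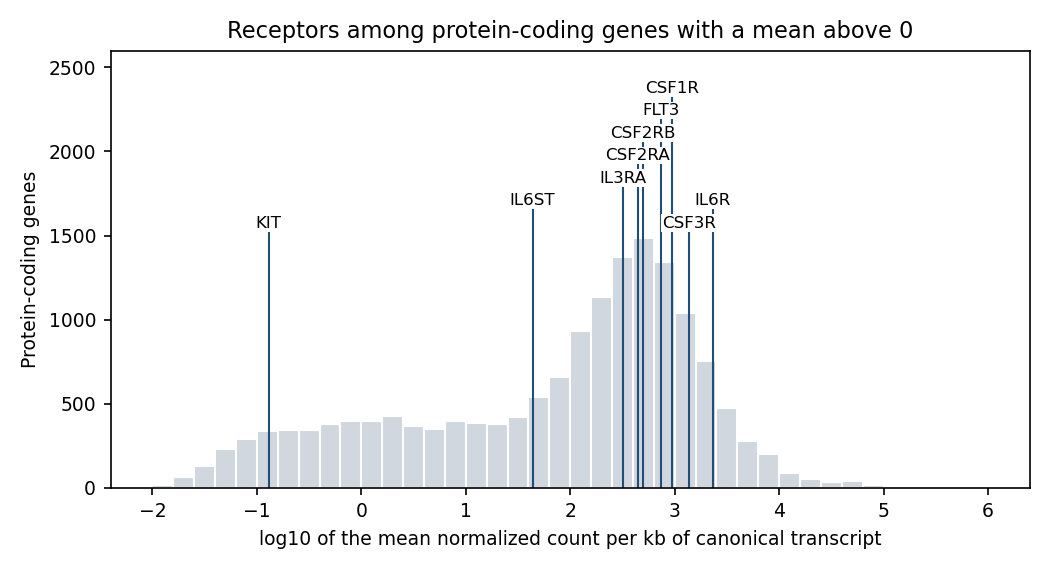
Histogram of the log10 mean normalized count per kb of canonical transcript over 16127 protein-coding genes with a mean above 0, with a line at each receptor. IL6R lies at percentile 91.8, IL3RA at percentile 59.7, IL6ST at percentile 35.7 and KIT at percentile 5.74.

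Of the receptor tyrosine kinases, CSF1R and FLT3 were expressed at similar levels and KIT was almost absent. CSF1R, the receptor of macrophage colony-stimulating factor (ENSG00000182578.13, chr5:150053291-150113372, minus strand, 21 exons), had a mean normalized count of 3622, or 948 per kb, at percentile 80.7. FLT3, the receptor of FLT3 ligand (ENSG00000122025.14, chr13:28003274-28100592, minus strand, 24 exons), had a mean of 2809, or 734 per kb, at percentile 76.3. The level per kb of CSF1R was 1.29 times that of FLT3, 1.32 times with the coding length and 1.04 times with the length of all annotated exons. KIT, the receptor of stem cell factor (ENSG00000157404.15, chr4:54657267-54740783, plus strand, 21 exons), had a mean of 0.666, or 0.129 per kb. It was the lowest of the 9 under each of the 3 lengths.

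The mean of KIT was low enough to be taken apart into whole reads. Each library adds its reads times a fixed weight to the mean, and for genes with a mean under 35 only 1 set of whole reads gave the deposited value. The 6 libraries could not be tied to shNEG or shSPINK2 from these weights, so they are named A to F in order of size factor. KIT had 1 read in A, 1 in B, 0 in C, 0 in D, 2 in E and 0 in F. No library held more than 2 reads, so the gene was at or near 0 in both groups, whichever labels the libraries have. The exact Poisson 95% interval of the 4 reads ran from 1.09 to 10.2, and per kb the level of FLT3 was 5672 times that of KIT, with a counting interval of 2215 to 20819.

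The 3 chains of the GM-CSF and interleukin 3 receptors stood next to each other in the order per kb of transcript. CSF2RB, the common beta chain (ENSG00000100368.13, chr22:36913628-36940439, plus strand, 14 exons), had a mean normalized count of 2396, or 494 per kb. CSF2RA, the GM-CSF alpha chain (ENSG00000198223.16, chrX:1268800-1310381, plus strand, 13 exons), had a mean of 807, or 445 per kb. IL3RA, the interleukin 3 alpha chain also known as CD123 (ENSG00000185291.11, chrX:1336616-1382689, plus strand, 12 exons), had a mean of 495, or 321 per kb. Per kb the beta chain was thus 1.11 times CSF2RA and 1.54 times IL3RA, although its mean count was 2.97 and 4.84 times theirs. With all annotated exons as the length, the beta chain was 2.44 times CSF2RA and 1.66 times IL3RA. The alpha chains CSF2RA, IL3RA and IL5RA summed to 767 per kb against 494 for the beta chain. This ratio of 1.55 was 1.25 with the coding length and 1.02 with all annotated exons. IL5RA, the alpha chain for interleukin 5 and the other partner of CSF2RB, had 12, 9, 0, 6, 6 and 3 reads in libraries A to F, a level of 1.05 per kb.

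Both alpha chain genes lie in the pseudoautosomal region that the X and Y chromosomes share, with 26235 bases between them. The table lists each also on Y, with a mean of 0, so that all reads were assigned to the X copy. The neighbours of the pair differed widely. SLC25A6, which encodes a mitochondrial carrier of ADP and ATP, had a mean of 11214, P2RY8, a G protein-coupled receptor, had 10747, and CRLF2, the receptor chain for thymic stromal lymphopoietin, had 1.33.

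CSF3R, the G-CSF receptor (ENSG00000119535.17, chr1:36466043-36483278, minus strand, 17 exons), had a mean normalized count of 4161, or 1383 per kb, at percentile 86.2. It exceeded CSF1R 1.46 times per kb of transcript and 1.34 times per kb of coding sequence, but stood at 0.558 times CSF1R when all annotated exons were the length. The 16 annotated transcripts of CSF3R cover 10594 bases of exon together, against 3008 in the canonical transcript. The order of this pair therefore rests on the length, as does that of CSF2RA and IL3RA, whose ratio of 1.38 was 0.681 with all annotated exons.

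Among the 9 receptors, the chains of the interleukin 6 receptor were less even than those of the GM-CSF and interleukin 3 receptors. IL6R, the ligand-binding chain (ENSG00000160712.12, chr1:154405193-154469450, plus strand, 10 exons), had a mean normalized count of 13368, or 2319 per kb. IL6ST (ENSG00000134352.19, chr5:55935095-55995022, minus strand, 17 exons) had a mean of 394, or 43.6 per kb, under the median of protein-coding genes. The level per kb of IL6R was 53.2 times that of IL6ST, 66.6 times with the coding length and 58.6 times with all annotated exons. The transcripts of both genes are mostly untranslated: the coding part is 1404 of 5764 bases in IL6R and 2754 of 9027 in IL6ST.

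Other chains that work with gp130 were measured beside it. IL27RA, the interleukin 27 receptor chain, had a mean normalized count of 1631 and stood at 12.7 times IL6ST per kb, 5.98 times with the coding length and 16.9 times with all annotated exons. IL11RA, the alpha chain for interleukin 11, had a mean of 160, or 93.1 per kb. LIFR, which with gp130 forms the receptor for leukaemia inhibitory factor, was listed at 0, with no read in any library. A count of 0 allows an expected count of up to 3 reads over the 6 libraries. OSMR, the oncostatin M receptor chain, had 5, 4, 8, 3, 5 and 5 reads in libraries A to F, and CNTFR had 1 read in all. Of the chains that can pair with gp130, IL6R and IL27RA were above it per kb under each of the 3 lengths, IL11RA was above it per kb of transcript but below it per kb of coding sequence (127 against 143), and LIFR, OSMR and CNTFR were at 8 reads or fewer in every library. ADAM17 and ADAM10, proteases known to shed IL6R from the cell surface, had means of 2312 and 3620.

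**Figure D3:**
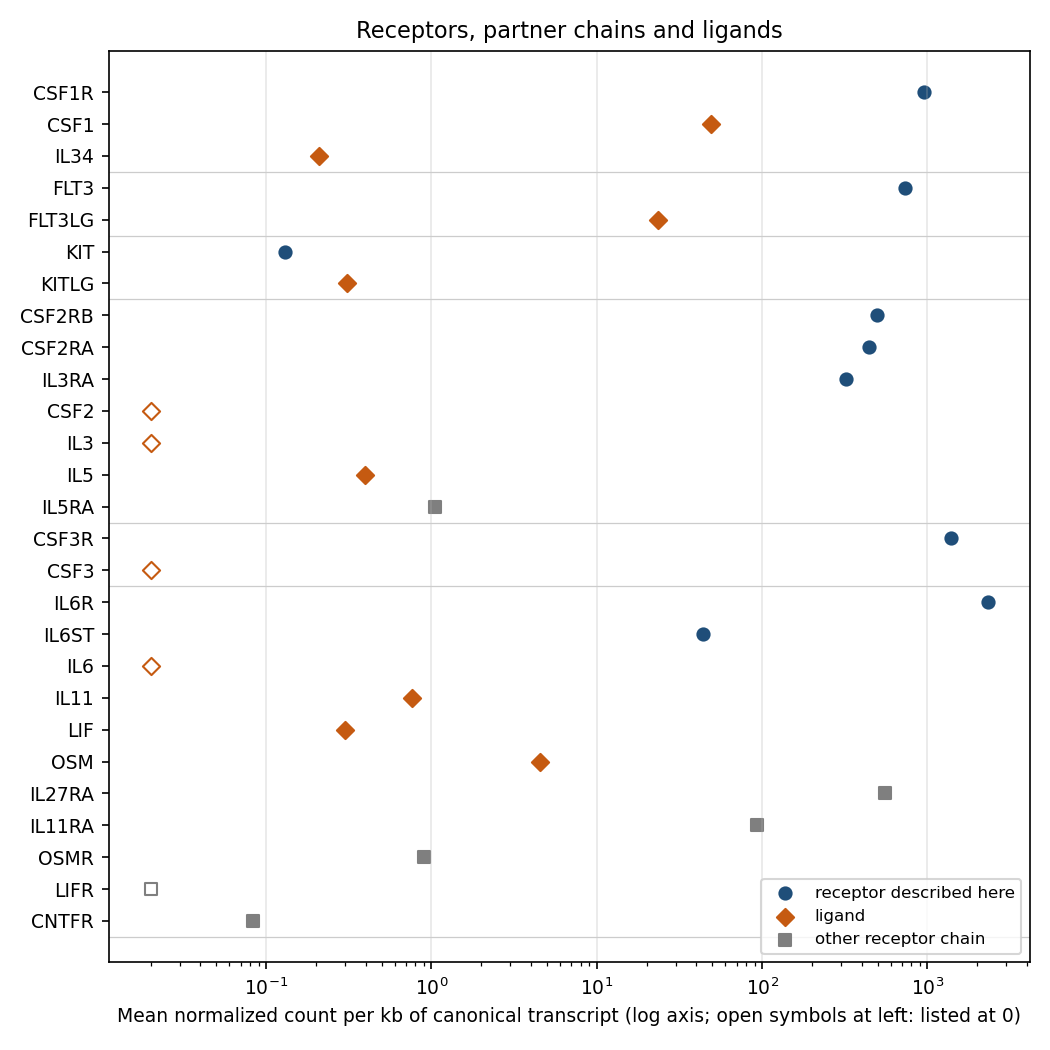
Mean normalized count per kb of canonical transcript (log axis) for the 9 receptors (circles), their ligands (diamonds) and other chains of the same receptors (squares), grouped by receptor system, with open symbols at the left edge for genes listed at 0. In each system but that of KIT the receptors lie above the ligands, and the ligands CSF2, IL3, CSF3 and IL6 are listed at 0.

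The ligands of these receptors were mostly undetected in the cells themselves. Of 14 ligand genes 3 were detected and 4 were listed at 0, and their median was 0.327 per kb. CSF1 had a mean normalized count of 195, or 48.7 per kb, and the level per kb of its receptor CSF1R was 19.5 times as high, 10.6 times with the coding length and 18.9 times with all annotated exons. FLT3LG had 30, 23, 27, 24, 20 and 24 reads in libraries A to F, and the level per kb of FLT3 was 31.4 times its level, 27.1 times with the coding length and 78.2 times with all annotated exons. OSM, a ligand of gp130 receptors, had 12, 9, 11, 7, 8 and 4 reads. These 3 were the detected ligands, and FLT3LG and OSM had reads in each of the 6 libraries.

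For the others the reads were at the limit of the depth. KITLG, the KIT ligand, had 3, 1, 2, 2, 2 and 0 reads in libraries A to F, so that both KIT and its ligand were near 0 in every library. IL34, the second ligand of CSF1R, had 2 reads in all and IL5 had 2. CSF2, CSF3, IL3 and IL6, which encode GM-CSF, G-CSF, interleukin 3 and interleukin 6, were each listed at 0. That allows each an expected count of up to 3 reads over the 6 libraries together. As no library of either group held a read of these 4 genes, a difference between the groups was not detectable at this depth.

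**Figure D4:**
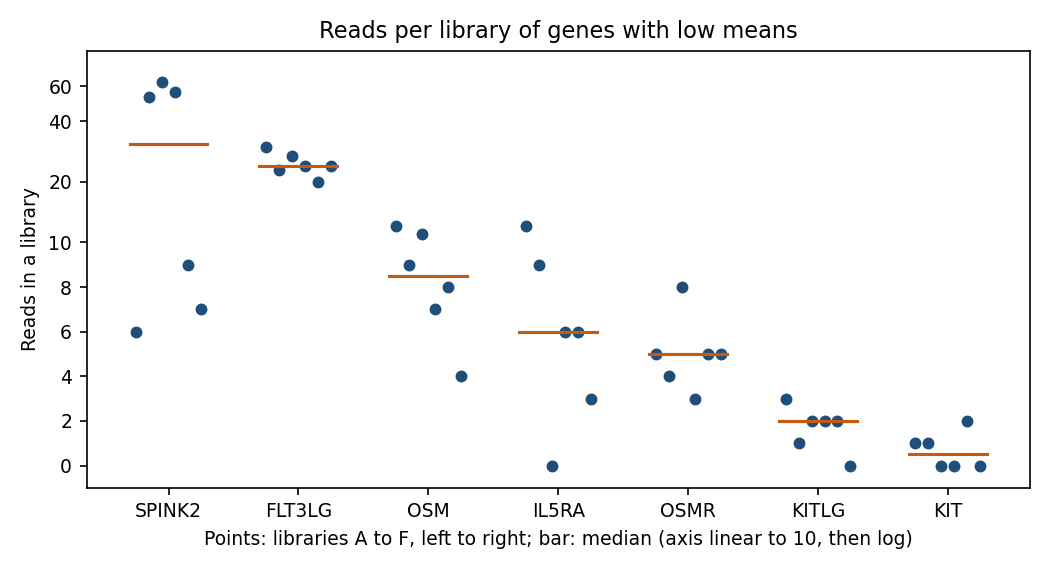
Reads of SPINK2, FLT3LG, OSM, IL5RA, OSMR, KITLG and KIT in each of the 6 libraries, A to F from left to right (axis linear to 10, then logarithmic), with a bar at the median. FLT3LG lies between 20 and 30 reads in each library, KIT at 2 reads or fewer, and SPINK2 between 6 and 63.

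SPINK2 itself, the targeted gene, had 6 reads in library A, 53 in B, 63 in C, 56 in D, 9 in E and 7 in F, with a median of 31. These libraries carry no label here, so the counts give no knockdown and check no group.

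The receptors were next set against other cytokine and growth factor receptor genes. In that list of 28 genes, which also holds the ligand TSLP, 19 were detected, 3 were listed at 0 and 11 lay at or above the median of protein-coding genes, with a list median of 30.2 per kb. The 9 receptors had a median of 494 per kb. The higher levels in the list were those of widely expressed chains: the interferon gamma chain IFNGR1 stood at 1830 per kb, IFNGR2 at 1000 and the interleukin 10 chain IL10RB at 760. EPOR, the erythropoietin receptor, stood at 204 per kb, with a mean of 492, and IL7R, a lymphoid receptor chain, at 116 per kb. Among the lowest of the list were PDGFRA, a class III kinase like KIT, at 2 reads in all, and IL2RA and GHR listed at 0. PDGFRB, the other platelet-derived growth factor receptor, stood at 19.4 per kb, and the level per kb of CSF1R was 48.8 times its level.

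The machinery behind the receptors was detected throughout. All 31 genes of a list of proximal signalling molecules were detected, with a median of 873 per kb, at percentile 79.3. For this and the lists below, the share to compare is 12828 detected of 16127 protein-coding genes with a mean above 0. Among the kinases that the cytokine receptors use, TYK2 stood at 1382 per kb, JAK1 at 976, JAK2, the main kinase of the beta chain, at 163 and JAK3 at 22.2. STAT3, which acts under gp130 and CSF3R, stood at 1524 per kb and STAT5B at 873, against 173 for STAT5A. Molecules that tyrosine kinase receptors recruit ranged widely, with the adaptor GRB2 at 3510, the phosphatase PTPN11 at 1732, the exchange factor SOS1 at 215 and the adaptors GAB2 and GAB1 at 92.3 and 37.7 per kb. JAK2, JAK3, STAT5A, GAB1 and GAB2 were thus below the median of protein-coding genes, and TYK2, STAT3, GRB2 and PTPN11 were at or above percentile 86.

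Among 33 negative regulators and traffic genes 32 were detected, with a median of 450 per kb. Of the SOCS family genes that cytokine signalling is known to induce, 3 were below the median of protein-coding genes: SOCS3, the inhibitor of gp130 and CSF3R, stood at 14.02 per kb, SOCS1 at 41.7, and SOCS2 at 76.0, whereas CISH, at 189, was just above the median of protein-coding genes. Of the other negative regulators, the phosphatase PTPN6 (SHP-1) stood at 3617 per kb, the lipid phosphatase INPP5D (SHIP1) at 1172 and CBL at 471. CBL is the ubiquitin ligase that sends CSF1R, FLT3 and KIT for degradation. CBLB, at 128 per kb, and SLA2, at 18.1, were below the median of protein-coding genes. SPRED1, an inhibitor of RAS signalling, was the 1 gene of the list at 0. Of 22 genes known to respond to these receptors, 21 were detected and 14 lay at or above the median of protein-coding genes. MYC stood at 4363 per kb, MCL1 at 1796 and CCND2 at 875, whereas the STAT5 target PIM1 stood at 146.

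Transcription factors known to act on the receptor genes were also listed, and 16 of 20 were detected, with a median of 993 per kb. CEBPA, which acts on CSF3R and IL6R, stood at 12633 per kb, SPI1 (PU.1), which acts on CSF1R, at 7767, MYB at 6333 and RUNX1 at 2899. GATA2 stood at 304 per kb. GATA1 and TAL1, factors of the erythroid and megakaryocyte lineages, had means of 0.984 and 3.29, and MITF, the mast cell and melanocyte factor, had 1.83. LMO2, at 4976 per kb, IRF8, at 3653, and HOXA9, at 2933, also stood above RUNX1. EGR1 was lower at 267 per kb, BCL6 stood at 222 and EGR2 at 6.78, and KLF4 was listed at 0.

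Promoters of 3 receptors are shown because CSF1R, IL6R and KIT differ both in level and in base composition. Each runs from 250 bases before to 50 bases after a transcription start of RefSeq (GRCh38.p14) and is written 5′ to 3′ on the strand of the gene. Capitals mark the PU box GAGGAA and the RUNX word TGTGGT, searched on both strands, which appear as TTCCTC and ACCACA when they lie on the other strand. The CSF1R promoter is the one at the lower coordinate of 2 listed starts (chr5:150086505-150086804, minus strand), IL6R is chr1:154405093-154405392 (plus strand) and KIT is chr4:54657707-54658006 (plus strand).
CSF1R: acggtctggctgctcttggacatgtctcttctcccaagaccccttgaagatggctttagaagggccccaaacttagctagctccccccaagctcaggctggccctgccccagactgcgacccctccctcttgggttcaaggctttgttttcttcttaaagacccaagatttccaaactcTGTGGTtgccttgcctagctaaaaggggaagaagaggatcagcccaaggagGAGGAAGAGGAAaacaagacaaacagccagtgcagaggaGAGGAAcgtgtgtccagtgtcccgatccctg
IL6R: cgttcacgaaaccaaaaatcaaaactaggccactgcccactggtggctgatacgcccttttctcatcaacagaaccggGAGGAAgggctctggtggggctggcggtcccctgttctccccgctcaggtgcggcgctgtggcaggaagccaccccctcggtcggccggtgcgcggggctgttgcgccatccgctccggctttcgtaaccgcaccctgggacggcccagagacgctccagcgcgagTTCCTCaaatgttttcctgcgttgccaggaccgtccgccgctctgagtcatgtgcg
KIT: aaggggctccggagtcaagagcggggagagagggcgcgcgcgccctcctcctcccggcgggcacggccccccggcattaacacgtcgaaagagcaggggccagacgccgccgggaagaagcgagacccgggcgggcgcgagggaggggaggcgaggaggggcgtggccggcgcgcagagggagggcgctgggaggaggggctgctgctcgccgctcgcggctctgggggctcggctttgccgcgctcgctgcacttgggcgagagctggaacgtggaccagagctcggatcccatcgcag
The CSF1R promoter held 3 PU boxes and 1 RUNX word, the IL6R promoter held 2 PU boxes, and the KIT promoter held neither. The other listed CSF1R promoter (chr5:150113316-150113615, minus strand) held no PU box and no RUNX word, and which start these cells used was not measured.

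Over the 10 promoters listed for 8 of the receptors, the PU box was found in 5, against 27.9% of all 34961 promoters. The RUNX word was found in 2, against 13.1%, and the C/EBP word TTNNGNAA in 6, against 36.8%. The GATA word AGATAA was found in none of the 10, against 10.3%. These are matches of letters in a short window, the words can occur by chance, and no binding was measured.

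The promoters fell apart in their number of CpG dinucleotides, the sites of DNA methylation. FLT3 had 34, IL6ST 36, KIT 38 and IL6R 27, whereas the promoters of CSF1R (4 and 8), CSF3R (9 and 3), CSF2RA (6) and IL3RA (8) had fewer than 10. The median over all promoters was 14, that of detected protein-coding genes 24, and that of protein-coding genes not detected 9. As KIT alone among the receptors was not detected, they cannot show whether they follow this difference. KIT, with the most CpG, had the lowest level. IL6R, with 27, had the highest level per kb of canonical transcript. CSF3R and CSF1R, with few, came next, followed by FLT3 with 34. Methylation was not measured.

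The genes beside the receptors were also read, because the counting setting for strand is not given in the sources used here. HMGXB3 ends 149 bases from CSF1R on the other strand, with a mean of 4128, and PDGFRB, on the same strand, ends 467 bases upstream of CSF1R, with a mean of 111. Of genes that overlap a receptor on the opposite strand, the most abundant relative to its receptor was AC016596.1, a processed pseudogene in IL6ST with 3.45% of its mean, followed by RPL7P1 in CSF1R with 1.95%. Pseudogene copies that could share reads were low: CSF2RBP1 had a mean of 3.81, IL6STP1 0.169 and IL6RP1 0. These means do not show how many reads matched both a receptor gene and its copy. Within 250 kb KIT had no other protein-coding gene. IL6ST had 4 such neighbours, of which IL31RA, a related receptor chain 12241 bases away, had a mean of 20.2.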

How the data were processed

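The authors prepared mRNA libraries, sequenced 150-base paired reads, aligned them with STAR (2.7.11 per the submitters' processing notes) to hg38, assigned them to genes with featureCounts and used DESeq2 (1.40.0) for scaling and for their comparison. Annotation release, featureCounts version and strand setting are not given in the sources used here. The signal used is the deposited mean over all 6 libraries of counts that the authors divided by size factors. The table also holds 5 columns of the authors' own comparison (log2 fold change, its error, statistic, p-value and adjusted p-value) and a status derived from them, which were not used. The planned fits between groups were therefore not run, and depth is known only as the sum of means. Lengths and positions came from GENCODE 44, matched by Ensembl identifier for 98.8% of rows above 0, and promoters from RefSeq (GRCh38.p14). The canonical transcript gave the length. Whole reads were solved from means under 35, with the weights of the 6 libraries read from the means shared by 546 to 662 genes each, and the solver was tested on simulated data and on 200 genes of the table. Members and lists were chosen with earlier results of these data known. The rule for named genes needed tested changes or values per library and named no gene, so genes besides the receptors were chosen from fixed lists after their values were seen. Intervals cover counting error only. Python 3.11.15, numpy 2.4.6, pandas 2.3.3 and scipy 1.17.1 were used.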

Additional observations from a re-analysis of the deposited data

How the results depend on the processing

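The number of receptors at or above percentile 75 per kb was 4 with the canonical transcript and with all annotated exons, 2 with the coding length, and 3 when percentiles were taken among detected protein-coding genes. The ratio of IL6R to IL6ST was 53.2, and 66.6 with the coding length and 58.6 with all annotated exons, so its direction held under these 3 lengths. With all annotated exons the ratio of CSF2RA to IL3RA turned to 0.681 and that of CSF3R to CSF1R to 0.558, as the construction of that length adds exons that the canonical transcript lacks. The exon length and the background of detected genes were chosen after seeing the data. Reads were recovered for all 200 genes drawn with limits of 20, 35 and 50, although 2 altered means also gave a solution at 50. No paired analysis was possible because the recovered libraries carry neither a replicate number nor a group. The planned changes of pseudocount, low filter, size factors, tool, threshold and left-out library belong to the comparison between groups and were not run. The means give no spread between libraries, which limits every level given here except those solved into reads.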

Other observations

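The reads of SPINK2 fell into separate ranges over the 6 libraries, with 6 in A, 9 in E and 7 in F against 53 in B, 63 in C and 56 in D, and these ranges were not tied to the labels. CD34, the progenitor antigen, had 11, 23, 22, 31, 13 and 18 reads in libraries A to F, and EGR2, an early response gene of CSF1 signalling, had 24, 16, 11, 14, 27 and 30. Both were chosen after their values were seen. Other genes of similar depth were not split in this way: IL2RG had 25, 21, 29, 38, 35 and 39 reads, and FLT3LG had 30, 23, 27, 24, 20 and 24. No relation between these genes was tested.

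SPRED1 was listed at 0, with no read in any library, which allows an expected count of up to 3 reads over the 6 libraries. Its relative SPRED2 had a mean normalized count of 1132. The nearest protein-coding genes beside SPRED1 on chromosome 15, FAM98B and RASGRP1, had means of 1447 and 4.47. TSLP, the thymic stromal lymphopoietin gene, had a mean of 629 and IL7R, a chain of its receptor, had 532, whereas CRLF2, the other chain, had 2, 1, 1, 2, 1 and 1 reads in libraries A to F. Among markers of lymphoid cells, TRAC had a mean of 299 and CD79A of 183, with CD3E at 0.500 and CD79B at 0.995.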
